A study of Rattus norvegicus with 24 samples.

Results

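The 10 genes described here belong to the integrated stress response and were followed across rat livers after inhalation of PCB 52, a polychlorinated biphenyl from a class of persistent industrial chemicals. The members were chosen by name as the ATF4 and CHOP axis with amino acid synthesis targets: Atf4, Atf3, Ddit3, Trib3, Asns, Chac1, Sesn2, Psat1, Phgdh and Nupr1. All 10 were found among the 15319 genes in the deposited count tables. Liver RNA from 24 adolescent Sprague-Dawley rats, an outbred stock, was profiled by bulk RNA-seq, each animal giving 1 library. The 4 groups, with 6 animals each, were females exposed to PCB 52, sham females, males exposed to PCB 52 and sham males. Exposed rats inhaled PCB 52 through the nose only, 4 hours daily for 28 days, with air flowing at 12 L/min. Sham animals are listed with the same hours, days and airflow. Females were 42 days old at the start and males 39 days, so sex and starting age cannot be told apart.

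In the integrated stress response, kinases that sense unfolded protein, amino acid shortage, double-stranded RNA or heme shortage phosphorylate the initiation factor eIF2 on its alpha subunit. General translation falls, while translation of the Atf4 mRNA increases, and the ATF4 protein then induces genes for amino acid supply, redox balance and, under lasting stress, cell death. Much of the control of ATF4 is translational, so its mRNA level need not follow its protein level. In liver the pathway is known for responses to amino acid limitation, and several of its targets are also regulated by nutritional state.

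ATF4 acts as a dimer with C/EBP proteins on a composite DNA element whose core is written TGATGNAA, or TTNCATCA on the other strand. RefSeq promoters of the GRCr8 assembly were found for 9 of the 10 members, all but Atf3. The core was searched on both strands in the 250 bases before each gene's start. It was present in the promoters of 3 of these 9 members, Trib3, Chac1 and Nupr1, while 3.40% of 33469 RefSeq promoters of the same length held it. The cAMP response element TGACGTCA, which reads the same on both strands, was present in none of the 9 and in 1.59% of all promoters. The 2 motifs cannot match the same 8 letters. The 3 promoters with the core are shown with the match in capitals, written 5′ to 3′ on the strand of the gene. The match TTACATCA lay 21 to 14 bases before the start of Trib3, at chr3:161275534-161275783 on the minus strand. In Chac1, at chr3:126795881-126796130 on the plus strand, TTGCATCA lay 167 to 160 bases before the start. In Nupr1, at chr1:190645902-190646151 on the minus strand, TTGCATCA lay 55 to 48 bases before the start. A match is a description of letters and not of binding.
Trib3: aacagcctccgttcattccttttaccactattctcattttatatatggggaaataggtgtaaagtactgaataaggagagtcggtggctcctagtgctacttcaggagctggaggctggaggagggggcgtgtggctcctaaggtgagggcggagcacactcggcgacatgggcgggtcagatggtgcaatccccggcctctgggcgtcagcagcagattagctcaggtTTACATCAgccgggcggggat
Chac1: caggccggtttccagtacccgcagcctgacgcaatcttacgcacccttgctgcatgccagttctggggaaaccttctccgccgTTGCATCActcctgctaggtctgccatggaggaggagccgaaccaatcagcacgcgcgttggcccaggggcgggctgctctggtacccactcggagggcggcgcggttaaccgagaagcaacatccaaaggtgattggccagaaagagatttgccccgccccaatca
Nupr1: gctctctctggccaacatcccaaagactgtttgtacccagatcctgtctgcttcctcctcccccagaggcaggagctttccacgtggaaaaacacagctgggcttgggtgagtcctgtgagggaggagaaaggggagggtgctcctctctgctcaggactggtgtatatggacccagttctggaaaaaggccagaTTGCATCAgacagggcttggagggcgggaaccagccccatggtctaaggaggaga

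The promoters of Phgdh (chr2:188624790-188625039, minus strand) and Psat1 (chr1:222645409-222645658, minus strand) are shown because these genes encode consecutive enzymes of serine synthesis and differed between the sexes in opposite directions, as given with the sex comparison. Neither window held either motif, so neither has capitals.
Phgdh: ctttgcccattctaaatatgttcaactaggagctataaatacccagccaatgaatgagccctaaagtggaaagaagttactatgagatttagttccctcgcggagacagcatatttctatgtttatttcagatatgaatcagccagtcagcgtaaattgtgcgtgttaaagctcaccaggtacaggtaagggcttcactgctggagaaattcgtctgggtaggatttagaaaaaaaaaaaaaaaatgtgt
Psat1: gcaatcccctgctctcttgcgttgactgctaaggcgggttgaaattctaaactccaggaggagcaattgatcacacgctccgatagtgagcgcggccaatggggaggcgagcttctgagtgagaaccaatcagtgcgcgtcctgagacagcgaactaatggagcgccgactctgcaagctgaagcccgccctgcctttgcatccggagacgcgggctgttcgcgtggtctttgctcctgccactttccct

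Libraries held 6994832 to 9185511 counts, and levels are given as CPM, library counts scaled to a common total after TMM normalization, which are not scaled for transcript length and so are not compared between genes. Summed CPM of 8 hepatocyte markers, which include albumin and transthyretin, lay between 144622 and 203770 in every library, and none of these markers was at 0. The leading axis of variation within groups held 16.7% of that variance in females and 19.8% in males. Exposed animals 13 to 16, replicates 1 and 2 of the PCB 52 females and of the PCB 52 males, had the highest scores on it, 8.45 to 12.7, while all other libraries lay between -7.13 and 6.96. With group means removed their scores were 6.30 to 10.1, and sham animals 11 (9.11) and 12 (7.91) scored as high. The labels name no cause for this axis. Values without these animals stand beside the results they change or in the closing section on processing. In bulk liver RNA, fewer cells of a type and less RNA per cell cannot be told apart.

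**Figure D1:**
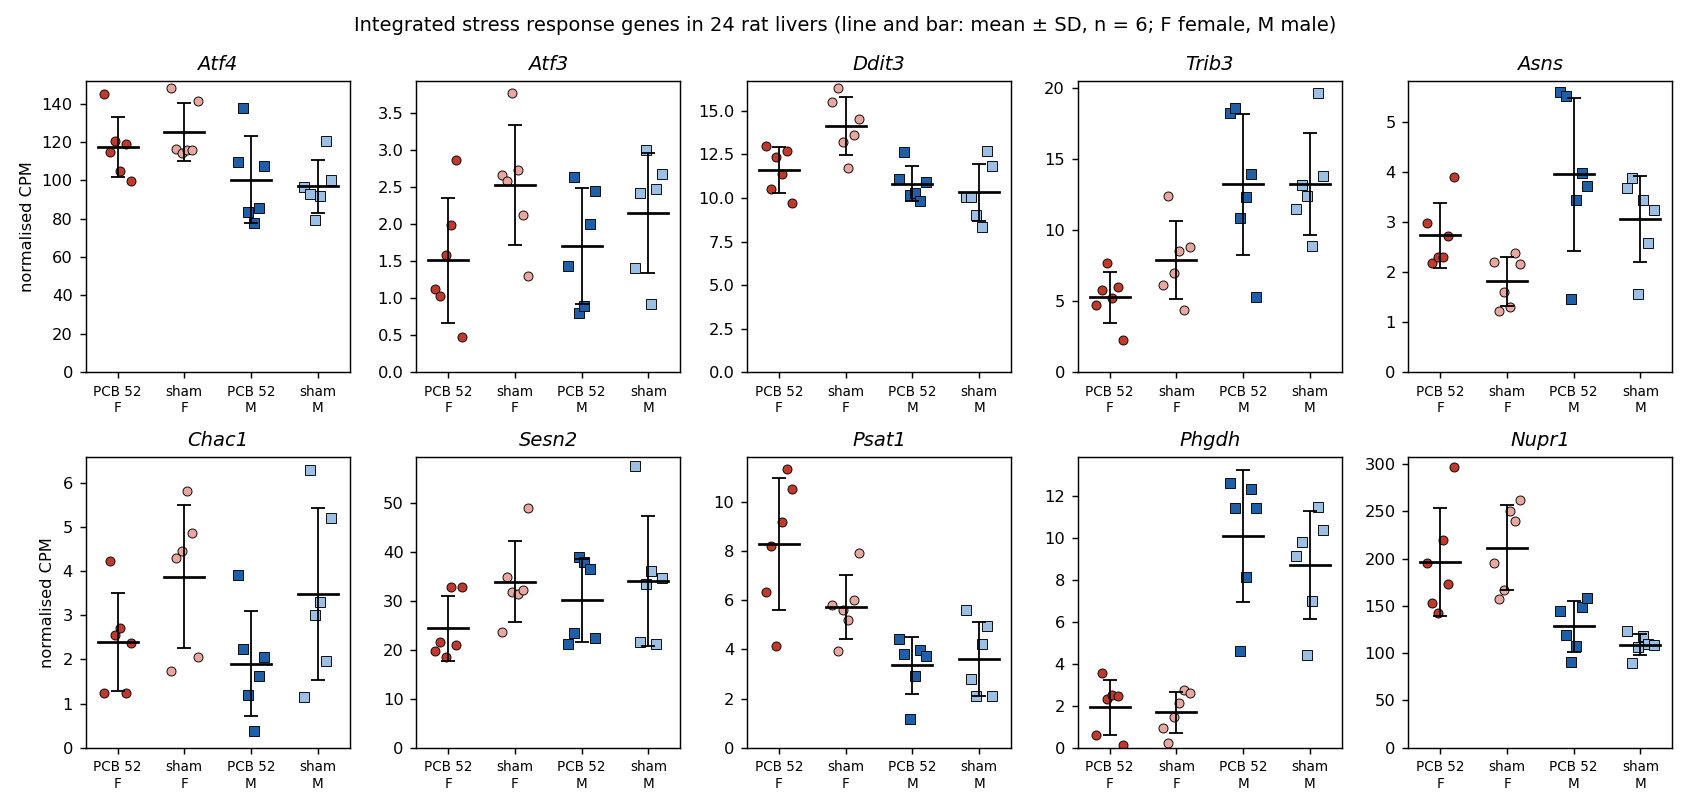
Normalised CPM (vertical axes, starting at 0) of the 10 genes in 24 livers, with 1 point per animal and the mean ± SD (n = 6) for PCB 52 females, sham females, PCB 52 males and sham males. The exposed and sham points of each sex overlap in every panel, while the Phgdh points of both female groups lie below those of both male groups.

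The first comparison asked whether PCB 52 changed these genes in the female liver. No member passed the edgeR quasi-likelihood test at a Benjamini-Hochberg adjusted p of 0.05 in females (0 of 10), and none of the 10251 genes tested did (0%). DESeq2, run as an alternative, called 28 genes, none of them a member. At an unadjusted p under 0.05 there were 7 members of 10, against 9.96% of all genes tested. Of these 7, Atf3, Ddit3, Trib3, Chac1 and Sesn2 had lower means in PCB 52 females than in sham females, and Asns and Psat1 had higher ones. The exposed and sham ranges overlapped for all 10 members, while 0.39% of genes tested had ranges that did not overlap. The members' median log2 fold change was -0.20, against 0.00 over all genes tested. Because the members were chosen with earlier results of these data known, these shares describe the list and are no test of it.

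Atf4, the central transcription factor of the response, ranged over 99.7 to 145 CPM (median 117) in PCB 52 females and over 114 to 148 CPM (median 116) in sham females. For Atf4 the log2 fold change was -0.10 ± 0.10 (SE), with an adjusted p of 0.761 (edgeR, Benjamini-Hochberg). The medians of the exposed and sham females nearly coincided. Ddit3, which encodes CHOP, a transcription factor tied to cell death under lasting stress, ranged over 9.69 to 13.01 CPM (median 11.9) in PCB 52 females and over 11.7 to 16.3 CPM (median 14.1) in sham females. All 6 exposed females lay below the sham mean, and the log2 fold change was -0.29 ± 0.12 (unadjusted p = 0.0221, edgeR adjusted p = 0.446). In the RefSeq annotation Ddit3 overlaps Mars1, the methionyl-tRNA synthetase gene, so reads of the 2 genes may not be told apart. Mars1 averaged 73.5 ± 4.42 CPM in PCB 52 females and 71.9 ± 4.70 CPM in sham females (SD, n = 6 each).

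Atf3 encodes a transcription factor induced by many stresses. Its level was low, at 0.473 to 2.87 CPM (median 1.35) in PCB 52 females, which is 4 to 21 counts a library, and at 1.30 to 3.76 CPM (median 2.62) in sham females, which is 12 to 33 counts. Atf3 had a log2 fold change of -0.75 ± 0.34 (unadjusted p = 0.0378, edgeR adjusted p = 0.486), with 5 of 6 exposed females below the sham mean. Nupr1, a small stress-induced chromatin protein, ranged over 142 to 297 CPM (median 184) in PCB 52 females and over 157 to 262 CPM (median 217) in sham females. The widest values of Nupr1 on both sides came from exposed females, and its log2 fold change was -0.11 ± 0.18 (edgeR adjusted p = 0.858).

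Among the feedback and effector genes, Trib3, a pseudokinase that restrains ATF4 and AKT signalling, ranged over 2.25 to 7.64 CPM (median 5.49) in PCB 52 females and over 4.37 to 12.4 CPM (median 7.74) in sham females. All 6 exposed females were below the sham mean of Trib3, with a log2 fold change of -0.58 ± 0.25 (unadjusted p = 0.0331, edgeR adjusted p = 0.482). Chac1 encodes an enzyme that breaks down glutathione. It ranged over 1.23 to 4.23 CPM (median 2.46) in PCB 52 females and over 1.74 to 5.81 CPM (median 4.37) in sham females. Chac1 had a log2 fold change of -0.68 ± 0.32 (unadjusted p = 0.0479, edgeR adjusted p = 0.501), and 5 of 6 exposed females lay below the sham mean. Sesn2, a leucine sensor that restrains mTORC1, ranged over 18.6 to 32.9 CPM (median 21.3) in PCB 52 females and over 23.7 to 48.9 CPM (median 32.1) in sham females. All 6 exposed females lay below the sham mean of Sesn2, and the log2 fold change of -0.47 ± 0.17 had the smallest unadjusted p of the members in females (0.0153, edgeR adjusted p = 0.432).

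The amino acid synthesis genes had positive fold changes in females. Asns, which makes asparagine, ranged over 2.18 to 3.90 CPM (median 2.52) in PCB 52 females and over 1.23 to 2.37 CPM (median 1.88) in sham females. Every exposed female lay above the sham mean of Asns, though the ranges overlapped, and the log2 fold change was 0.58 ± 0.24 (unadjusted p = 0.0270, edgeR adjusted p = 0.462). Psat1, the transaminase of serine synthesis, ranged over 4.12 to 11.3 CPM (median 8.69) in PCB 52 females and over 3.93 to 7.92 CPM (median 5.69) in sham females. Psat1 had a log2 fold change of 0.52 ± 0.21 (unadjusted p = 0.0255, edgeR adjusted p = 0.452), with 5 of 6 exposed females above the sham mean. Phgdh, the dehydrogenase that opens serine synthesis, ranged over 0.118 to 3.59 CPM (median 2.38) in PCB 52 females and over 0.245 to 2.74 CPM (median 1.81) in sham females. Phgdh had 1 to 28 counts in exposed females and 2 to 24 in sham females, and no difference was detectable at this depth (log2 fold change 0.18 ± 0.54, edgeR adjusted p = 0.932). Its sign turned without PCB 52 females replicate 2 (-0.08) or sham females replicate 2 (-0.04).

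The count of 7 members at an unadjusted p under 0.05 moved with the libraries and the fit used. It was 4 of 10 without animals 13 to 16, against 6.01% of all genes in that fit, and 2 of 10 with each library's axis score entered as a covariate, against 5.90%. With all 24 libraries fitted together it was also 4 of 10, against 11.2%. No member passed at an adjusted p of 0.05 in any of these fits. The part of the axis in these female values was not tested beyond the fits without animals 13 to 16 and with the covariate. Summed CPM of the 3 erythroid markers in the tables ran from 16.9 to 140 (median 29.5) in PCB 52 females and from 41.1 to 157 (median 90.4) in sham females. No erythroid marker passed, and their part in these values was not tested.

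**Figure D2:**
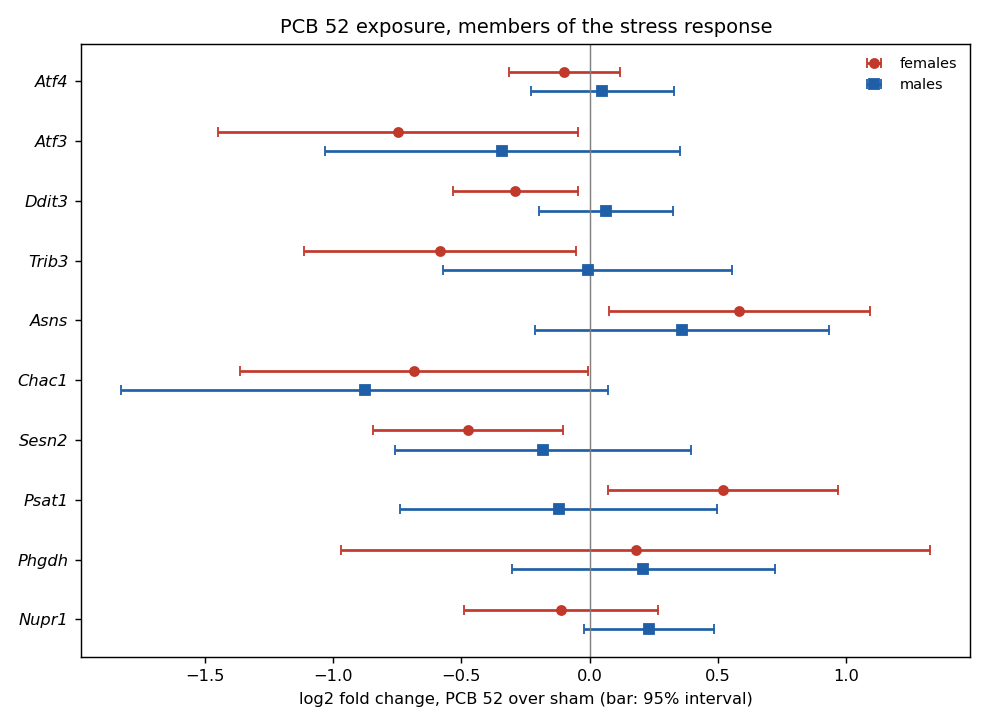
Log2 fold change of PCB 52 over sham (horizontal axis) for each gene, with females as red circles and males as blue squares and 95% intervals from the edgeR fits of each sex. In females 7 intervals exclude 0 without passing the adjusted threshold, with Asns and Psat1 above 0; in males all 10 intervals include 0.

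In males the same question gave no member at an adjusted p under 0.05 (0 of 10), and no gene of the 10180 tested passed (0%). DESeq2 called 1 gene, not a member. At an unadjusted p under 0.05 there were 0 members of 10, against 5.75% of all genes tested. That count was 1 of 10 with DESeq2 (5.5% of all genes in that fit) and without animals 13 to 16 (3.96%). It was also 1 of 10 with the axis score as a covariate (3.9%) and with all 24 libraries fitted together (5.12%). Ranges of exposed and sham males overlapped for all 10 members, while 0.226% of genes tested had ranges that did not overlap. The members' median log2 fold change was 0.02, against 0.00 over all genes tested.

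Atf4 ranged over 77.7 to 138 CPM (median 96.7) in PCB 52 males and over 79.2 to 121 CPM (median 94.5) in sham males. For Atf4 the fold change (log2) was 0.05 ± 0.13 (edgeR adjusted p = 0.955), and it turned to -0.13 without animals 13 to 16, to -0.06 without PCB 52 males replicate 2 and to -0.00 without sham males replicate 3. Ddit3 ranged over 9.85 to 12.6 CPM (median 10.6) in PCB 52 males and over 8.32 to 12.7 CPM (median 10.04) in sham males. Ddit3 was thus within the same narrow range in both male groups, with a log2 fold change of 0.06 ± 0.12 (-0.01 without animals 13 to 16).

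Atf3 ranged over 0.791 to 2.63 CPM (median 1.71) in PCB 52 males and over 0.924 to 3.0 CPM (median 2.44) in sham males, with a log2 fold change of -0.34 ± 0.33. Nupr1 ranged over 90.3 to 159 CPM (median 132) in PCB 52 males and over 89.5 to 123 CPM (median 109) in sham males. The Nupr1 levels of exposed males reached above those of sham males at the top and matched them at the bottom. Its log2 fold change was 0.23 ± 0.12 (unadjusted p = 0.0715, edgeR adjusted p = 0.829).

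Trib3 ranged over 5.26 to 18.5 CPM (median 13.1) in PCB 52 males and over 8.84 to 19.6 CPM (median 12.8) in sham males. The Trib3 fold change of -0.01 ± 0.26 took either sign when single libraries were left out (-0.13 without PCB 52 males replicate 2, 0.15 without PCB 52 males replicate 6). Chac1 had the largest fold change of the members in males in absolute size, at -0.88 ± 0.44 (unadjusted p = 0.0679, edgeR adjusted p = 0.829). It ranged over 0.382 to 3.91 CPM (median 1.84) in PCB 52 males, which is 3 to 30 counts, and over 1.14 to 6.29 CPM (median 3.15) in sham males, which is 9 to 52 counts. Chac1 lay below the sham mean in 5 of 6 exposed males. Sesn2 ranged over 21.2 to 39.0 CPM (median 30.0) in PCB 52 males and over 21.2 to 57.5 CPM (median 34.1) in sham males. A single sham animal set the top of the Sesn2 range, and the fold change of -0.18 ± 0.26 became 0.03 without sham males replicate 1.

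Asns ranged over 1.45 to 5.598 CPM (median 3.86) in PCB 52 males and over 1.57 to 3.87 CPM (median 3.33) in sham males, with a log2 fold change of 0.36 ± 0.27. Psat1 ranged over 1.19 to 4.43 CPM (median 3.77) in PCB 52 males and over 2.09 to 5.595 CPM (median 3.50) in sham males. The Psat1 fold change of -0.12 ± 0.29 became 0.05 without PCB 52 males replicate 3 and 0.04 without sham males replicate 1. Phgdh ranged over 4.61 to 12.6 CPM (median 11.4) in PCB 52 males and over 4.43 to 11.5 CPM (median 9.48) in sham males, with a log2 fold change of 0.21 ± 0.24. Across these 3 synthesis genes every male group overlapped the other.

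Both sexes were then averaged in a fit of all 24 libraries. No member (0 of 10) and none of 10535 genes (0%) had an adjusted p under 0.05, while DESeq2 called 105 genes and no member. Chac1 (-0.78 ± 0.29, unadjusted p = 0.0126, edgeR adjusted p = 0.222), Asns (0.48 ± 0.19, unadjusted p = 0.0168, edgeR adjusted p = 0.238) and Atf3 (-0.54 ± 0.25, unadjusted p = 0.0367, edgeR adjusted p = 0.294) had an unadjusted p under 0.05, 3 of 10 members against 15.4% of all genes tested. These 3 genes had the same sign in each sex taken alone, as did Sesn2, Trib3 and Phgdh. Picking genes by the p of the average favours a shared sign, so it is no separate evidence. The other 7 members had average log2 fold changes between -0.32 for Sesn2 and 0.20 for Psat1. At an unadjusted p under 0.05 there was 1 member without animals 13 to 16, against 8.01% of all genes in that fit, and 1 with the axis score as a covariate, against 8.23%.

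Whether the sexes responded differently was tested as the difference of the 2 responses, females minus males. No member (0 of 10) and none of 10535 genes (0%) had an adjusted p under 0.05, and DESeq2 also called 0. Ddit3 was the member with an unadjusted p under 0.05, at -0.35 ± 0.16 (unadjusted p = 0.0366, edgeR adjusted p = 1.00), 1 of 10 against 2.27% of all genes tested. The next smallest unadjusted p values belonged to Psat1 (0.64 ± 0.38, unadjusted p = 0.103) and Trib3 (-0.58 ± 0.39, unadjusted p = 0.152). The count of members at an unadjusted p under 0.05 was 0 of 10 without animals 13 to 16, against 2.9% of all genes in that fit. It was 1 of 10 with the axis score as a covariate, against 2.98%, and 2 of 10 with a block for consecutively numbered animals, against 3.37%. The 95% interval of the difference ran from -0.14 to 1.42 for Psat1 and from -1.38 to 0.23 for Trib3, so sizeable differences in either gene lie within the error. For Phgdh the difference was -0.03 ± 0.62, and its sign depended on single libraries, with values from -0.29 without PCB 52 females replicate 2 to 0.22 without PCB 52 females replicate 6. For Chac1 the difference of 0.19 ± 0.58 became -0.07 without sham males replicate 2, -0.03 without PCB 52 females replicate 2 and -0.02 without PCB 52 males replicate 4.

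More members passed between females and males than between exposed and sham animals. In sham animals 4 of 10 members passed at an adjusted p of 0.05, against 20.3% of all 10535 genes tested (10.7% higher and 9.62% lower in females). At an unadjusted p under 0.05 there were 7 members of 10, against 30.6% of all genes. Nupr1, Ddit3 and Atf4 were higher in sham females than in sham males, and Phgdh was lower. In PCB 52 animals 4 of 10 members passed, against 19.9% of all genes tested (10.1% higher and 9.73% lower in females). At an unadjusted p under 0.05 there were 5 of 10, against 30.5% of all genes. Psat1 and Nupr1 were higher in PCB 52 females than in PCB 52 males, and Phgdh and Trib3 were lower.

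Phgdh had the widest sex difference of the members. It averaged 1.93 ± 1.30 CPM in PCB 52 females against 10.1 ± 3.13 CPM in PCB 52 males (SD, n = 6 each). It averaged 1.69 ± 0.985 CPM in sham females against 8.71 ± 2.57 CPM in sham males. Every female was below every male of the same treatment, while 9.81% of genes tested did not overlap in PCB 52 animals and 11.5% in sham animals. On the log2 scale females over males stood at -2.38 ± 0.41 in PCB 52 animals (edgeR adjusted p = 9.41e-05) and -2.35 ± 0.41 in sham animals (edgeR adjusted p = 1.45e-04). With 1 to 28 counts a library in females, the female levels carry wide counting error.

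Psat1, the next enzyme of the same pathway, lay on the other side. It averaged 8.28 ± 2.69 CPM in PCB 52 females against 3.34 ± 1.16 CPM in PCB 52 males, and 5.74 ± 1.30 CPM in sham females against 3.62 ± 1.505 CPM in sham males (SD, n = 6 each). Females over males gave a log2 fold change of 1.30 ± 0.27 in PCB 52 animals (edgeR adjusted p = 5.15e-04), where all 6 females lay above the male mean. In sham animals it was 0.66 ± 0.27 and did not pass (edgeR adjusted p = 0.0869), though it passed without sham males replicate 1 (0.82, edgeR adjusted p = 0.0374) and with a block for consecutively numbered animals (0.68, edgeR adjusted p = 0.0295). The change in this sex difference with exposure is the 0.64 given above, whose adjusted p was 1.00.

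**Figure D3:**
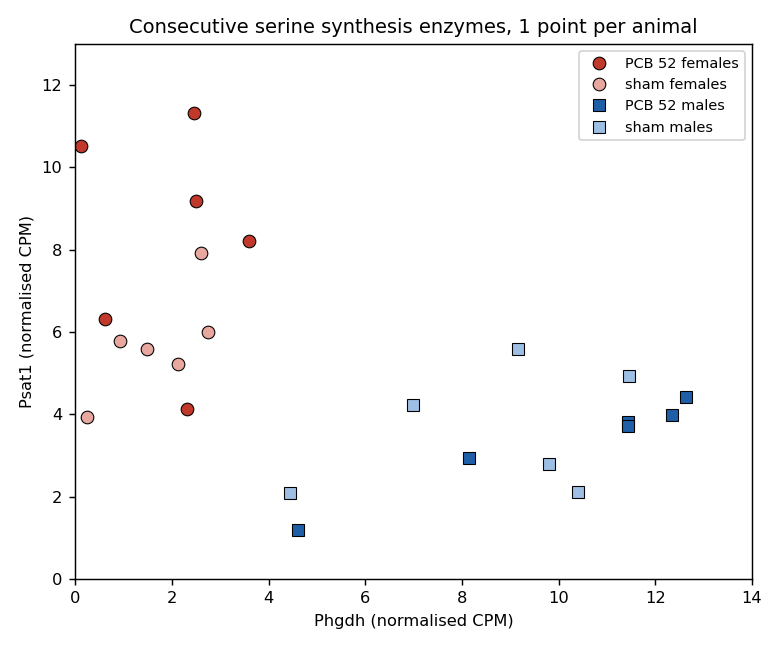
Normalised CPM of Phgdh against Psat1, the enzymes of consecutive steps of serine synthesis, with 1 point for each of the 24 animals and a colour for each of the 4 groups. Females lie below males in Phgdh (0.118 to 3.59 CPM against 4.43 to 12.6 CPM), while the highest Psat1 levels, up to 11.3 CPM, belong to PCB 52 females.

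Trib3 was lower in females. It averaged 5.26 ± 1.78 CPM in PCB 52 females against 13.2 ± 4.98 CPM in PCB 52 males, and 7.86 ± 2.75 CPM in sham females against 13.2 ± 3.58 CPM in sham males (SD, n = 6 each). In PCB 52 animals the log2 fold change was -1.33 ± 0.28 (edgeR adjusted p = 0.00102), but the call was lost without animals 13 to 16 (-1.01, edgeR adjusted p = 0.0545). In sham animals it was -0.75 ± 0.27, just short of the threshold (edgeR adjusted p = 0.0508). That value passed with median-of-ratios normalization (0.0482), with DESeq2 (0.0227), without animals 13 to 16 (0.0486), with the block for consecutive animals (0.0223), and without sham females replicate 2, PCB 52 females replicate 3 or 6, sham males replicate 4, or PCB 52 males replicate 1, 2 or 6 (adjusted p 0.0180 to 0.0478).

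Nupr1 averaged 197 ± 56.8 CPM in PCB 52 females against 128 ± 26.6 CPM in PCB 52 males, and 212 ± 44.6 CPM in sham females against 109 ± 11.5 CPM in sham males (SD, n = 6 each). In sham animals every female was above every male, and in PCB 52 animals the ranges overlapped. Of all genes tested, 11.5% did not overlap in sham animals and 9.81% in PCB 52 animals. The response difference of Nupr1 did not pass (-0.34 ± 0.23, edgeR unadjusted p = 0.155). The log2 fold change was 0.62 ± 0.16 in PCB 52 animals (edgeR adjusted p = 0.00781) and 0.96 ± 0.17 in sham animals (edgeR adjusted p = 1.00e-04).

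Ddit3 averaged 11.6 ± 1.32 CPM in PCB 52 females against 10.8 ± 1.00 CPM in PCB 52 males, and 14.2 ± 1.66 CPM in sham females against 10.3 ± 1.66 CPM in sham males (SD, n = 6 each). The log2 fold change was 0.10 ± 0.11 in PCB 52 animals (edgeR adjusted p = 0.607) and 0.46 ± 0.11 in sham animals (edgeR adjusted p = 0.00370). Mars1, which overlaps Ddit3, had log2 fold changes of -0.00 ± 0.07 in PCB 52 animals and 0.00 ± 0.07 in sham animals. Atf4 averaged 117 ± 15.8 CPM in PCB 52 females against 100.4 ± 22.6 CPM in PCB 52 males, and 125 ± 15.3 CPM in sham females against 96.8 ± 13.7 CPM in sham males. The log2 fold change of Atf4 was 0.23 ± 0.12 in PCB 52 animals (edgeR adjusted p = 0.211) and 0.37 ± 0.12 in sham animals (edgeR adjusted p = 0.0259). The sham call of Atf4 was lost without sham females replicate 1 (0.0713) or 6 (0.0662), or without sham males replicate 2 (0.0520), 3 (0.0790) or 4 (0.0538), all edgeR adjusted p values. In PCB 52 animals Atf4 passed without PCB 52 males replicate 2 (0.34, edgeR adjusted p = 0.0352).

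Asns was below the male mean in all 6 females of each treatment without passing. It averaged 2.73 ± 0.649 CPM in PCB 52 females against 3.95 ± 1.53 CPM in PCB 52 males, and 1.81 ± 0.497 CPM in sham females against 3.06 ± 0.858 CPM in sham males (SD, n = 6 each). The log2 fold change was -0.53 ± 0.26 in PCB 52 animals (edgeR adjusted p = 0.156; 0.0295 without PCB 52 males replicate 3) and -0.75 ± 0.27 in sham animals (edgeR adjusted p = 0.0501). The sham value passed with DESeq2 (0.0368), with the axis score as a covariate (0.0365), without animals 13 to 16 (0.0401), and without sham females replicate 1 or 5, PCB 52 females replicate 6, sham males replicate 3, or PCB 52 males replicate 1, 2 or 3 (adjusted p 0.0187 to 0.0476). Atf3, Chac1 and Sesn2 had log2 fold changes between -0.30 and 0.34 in both treatments, and their adjusted p values ran from 0.437 to 0.990. Single libraries turned their signs: Sesn2 in sham animals ran from -0.15 without sham females replicate 6 to 0.21 without sham males replicate 1, Chac1 in sham animals became -0.04 without sham males replicate 1 and -0.01 without sham females replicate 4, and Atf3 in PCB 52 animals became 0.01 without PCB 52 females replicate 6.

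**Figure D4:**
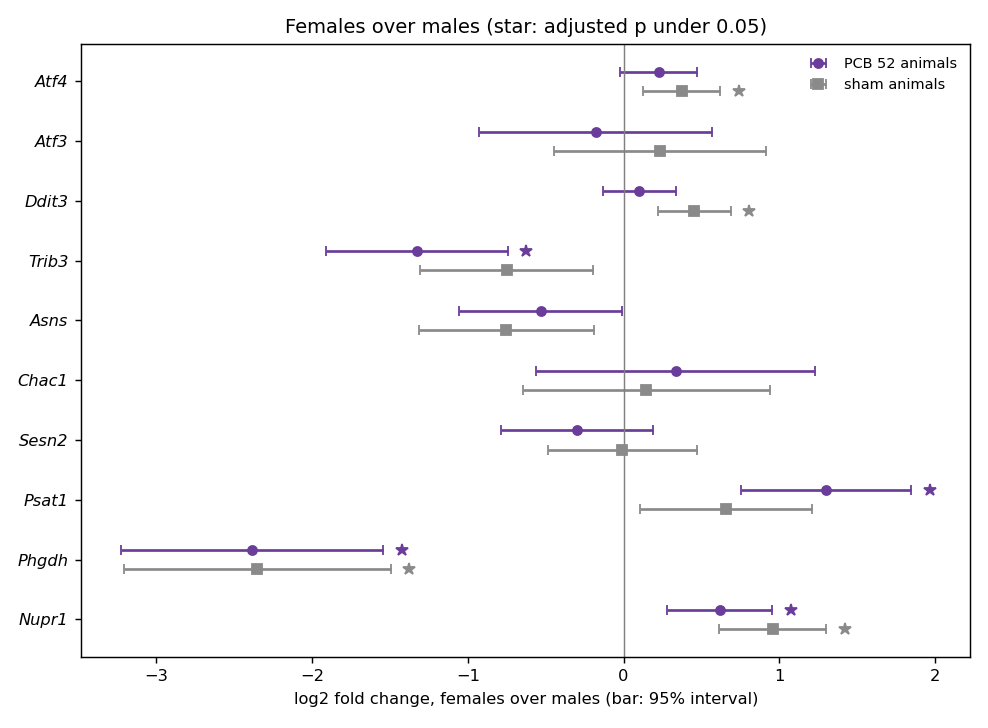
Log2 fold change of females over males (horizontal axis) for each gene with 95% intervals, with PCB 52 animals as purple circles and sham animals as grey squares; a star marks an adjusted p under 0.05. Phgdh lies near -2.4 in both treatments and Nupr1 above 0 in both, while Atf4 and Ddit3 have a star in sham animals and Psat1 and Trib3 in PCB 52 animals.

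Nupr1 and Phgdh passed in both treatments, Ddit3 and Atf4 in sham animals, and Psat1 and Trib3 in PCB 52 animals. None of these changes between treatments passed its own test, since the adjusted p of the response difference was 1.00 for every member. Markers of Kupffer cells and macrophages also differed between the sexes, with 5 of 8 higher in females of the PCB 52 animals and 6 of 8 in sham animals. The summed level of these 8 markers was 503 to 645 CPM in PCB 52 females and 461 to 534 CPM in PCB 52 males, and 553 to 739 CPM in sham females and 441 to 524 CPM in sham males. Their part in the members' sex differences was not tested. Summed pancreatic acinar markers were 82.0 to 207 CPM in PCB 52 females and 16.3 to 23.7 CPM in PCB 52 males, and 74.0 to 134 CPM in sham females and 15.6 to 30.2 CPM in sham males. Cpa1 made up most of the female sum, at 113 ± 48.2 CPM in PCB 52 females against 0.0212 ± 0.0519 CPM in PCB 52 males, and 101 ± 22.8 CPM in sham females against 0.293 ± 0.423 CPM in sham males (SD, n = 6 each). Cela1 was lower in females, at 4.80 ± 2.08 CPM in PCB 52 females against 17.999 ± 2.74 CPM in PCB 52 males, and 6.05 ± 1.55 CPM in sham females against 21.8 ± 4.52 CPM in sham males. Of the other 6 acinar markers, Cpb1 did not pass, Cel, Ctrb1 and Amy2a3 were under 1 CPM in every library, and Prss1 and Pnlip were at 0. The part of these markers in the members' sex differences was not tested.

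The rest of the pathway was read from 7 lists of named genes, and in none of them did a gene pass in the exposure comparisons. Among the eIF2alpha kinases and phosphatases (10 of 10 tested), Ppp1r15a, which encodes the stress-induced subunit GADD34 that directs eIF2alpha dephosphorylation, had the smallest unadjusted p in both sexes. It averaged 9.82 ± 1.39 CPM in PCB 52 females against 13.05 ± 2.68 CPM in sham females, and 7.68 ± 0.713 CPM in PCB 52 males against 10.3 ± 2.61 CPM in sham males (SD, n = 6 each). Its log2 fold change was -0.41 ± 0.14 in females, -0.42 ± 0.16 in males and -0.41 ± 0.11 on average (edgeR adjusted p = 0.129), without passing. Eif2ak4, which encodes the amino acid sensor GCN2, had log2 fold changes of 0.21 ± 0.11 in females and 0.15 ± 0.14 in males, with adjusted p values of 0.534 and 0.872.

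Among the 8 subunits of eIF2 and of its exchange factor eIF2B, no unadjusted p was under 0.05 in either sex. The smallest belonged to Eif2b2 (-0.16 ± 0.14) and Eif2b1 (-0.16 ± 0.15) in females and to Eif2b4 (-0.14 ± 0.09) and Eif2s2 (0.14 ± 0.11) in males. Of the ATF4 partners and stress effectors, 16 of 19 were tested in each sex. In females 13 of these 16 had a log2 fold change below 0 (median -0.21), and in males 12 of 16 did (median -0.05), against medians of 0.00 over all genes. Over all genes tested, 5057 of 10251 were below 0 in females and 4988 of 10180 in males. The smallest unadjusted p values among these partners and effectors, beside Ppp1r15a, belonged to Cebpb in females (-0.54 ± 0.18, edgeR adjusted p = 0.410) and to Cebpd in males (-0.61 ± 0.22, edgeR adjusted p = 0.829), which encode C/EBP family factors. Cebpb averaged 181 ± 61.8 CPM in PCB 52 females against 262 ± 35.3 CPM in sham females.

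Among amino acid and one-carbon enzymes, 12 of 15 were tested in each sex, with medians of 0.05 in females and -0.04 in males. The genes with the smallest unadjusted p were Gls2 (-0.19 ± 0.13) and Got1 (-0.54 ± 0.36) in females and Got1 (-0.38 ± 0.21) and Aldh18a1 (0.48 ± 0.29) in males, none under 0.05. Of the amino acid transporters, 7 of 10 were tested. Slc38a2, the neutral amino acid carrier SNAT2, averaged 116 ± 41.9 CPM in PCB 52 females against 222 ± 90.9 CPM in sham females (log2 fold change -0.94 ± 0.32, edgeR adjusted p = 0.420). In males Slc38a2 averaged 104 ± 23.9 CPM in PCB 52 animals against 132 ± 49.6 CPM in sham animals (-0.35 ± 0.24, edgeR adjusted p = 0.840). The next smallest belonged to Slc6a9 in females (-0.18 ± 0.15) and Slc1a5 in males (0.38 ± 0.28).

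All 20 cytosolic aminoacyl-tRNA synthetases were tested. The 2 subunits of phenylalanyl-tRNA synthetase differed in sign without passing. Farsb, the beta subunit, averaged 20.4 ± 2.17 CPM in PCB 52 females against 15.5 ± 1.41 CPM in sham females and 21.1 ± 5.44 CPM in PCB 52 males against 16.4 ± 1.77 CPM in sham males. Farsa, the alpha subunit, averaged 15.2 ± 2.08 CPM in PCB 52 females against 18.8 ± 0.893 CPM in sham females and 18.9 ± 1.99 CPM in PCB 52 males against 22.9 ± 2.01 CPM in sham males (SD, n = 6 each). The average log2 fold changes over both sexes were 0.38 ± 0.09 for Farsb (edgeR adjusted p = 0.0945) and -0.29 ± 0.07 for Farsa (edgeR adjusted p = 0.0960). Of 17 chaperones and sensors of the ATF6 and XBP1 arms of the unfolded protein response, 14 had a log2 fold change above 0 in females (median 0.11) and 14 in males (median 0.13). Over all genes tested, 5194 of 10251 were above 0 in females and 5192 of 10180 in males. Of these chaperones and sensors, Hyou1 (0.34 ± 0.11) and Hsp90b1 (0.23 ± 0.10) had the smallest unadjusted p in females, and Hsp90b1 (0.25 ± 0.09) and Atf6 (0.22 ± 0.09) in males, with adjusted p values of 0.392 to 0.829. In females and males, 6 and 6 of 10 kinases and phosphatases and 4 and 4 of 8 subunits were above 0. So were 7 and 4 of 12 enzymes, 2 and 2 of 7 transporters, and 14 and 12 of 20 synthetases. These sign counts were not tested.

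For the average of both sexes, the other list genes with the smallest unadjusted p were Hsp90b1 (0.24 ± 0.07), Hyou1 (0.28 ± 0.08), Cebpb (-0.46 ± 0.16), Slc38a2 (-0.64 ± 0.21), Eif2ak4 (0.18 ± 0.09), Aldh18a1 (0.46 ± 0.21), Got1 (-0.46 ± 0.21), Eif2b4 (-0.12 ± 0.06), Eif2b2 (-0.15 ± 0.09) and Slc3a2 (-0.11 ± 0.08), with adjusted p values of 0.146 to 0.524. In the difference of the responses, no gene of these lists had an unadjusted p under 0.05, and the smallest belonged to Tnfrsf10b, a death receptor gene (0.74 ± 0.39, unadjusted p = 0.0679). The others with the smallest unadjusted p in their lists were Nfe2l2 (0.19 ± 0.14), Eif2ak1 (0.16 ± 0.10), Impact (-0.15 ± 0.17), Eif2b1 (-0.17 ± 0.20), Eif2s2 (-0.07 ± 0.15), Mthfd1l (0.68 ± 0.60), Psph (0.27 ± 0.25), Slc38a2 (-0.60 ± 0.41), Slc1a5 (-0.45 ± 0.41), Gars1 (0.17 ± 0.12), Qars1 (-0.13 ± 0.10), Edem1 (-0.37 ± 0.29) and Xbp1 (0.28 ± 0.25).

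Between the sexes, list genes did pass, where the share called over all genes was 19.9% in PCB 52 animals and 20.3% in sham animals. Gdf15, a hormone gene induced by ATF4 and CHOP, averaged 11.5 ± 2.25 CPM in PCB 52 females against 1.12 ± 0.526 CPM in PCB 52 males, and 15.02 ± 6.52 CPM in sham females against 1.66 ± 1.01 CPM in sham males (SD, n = 6 each). Its log2 fold change was 3.35 ± 0.35 in PCB 52 animals (edgeR adjusted p = 4.45e-08) and 3.16 ± 0.32 in sham animals (edgeR adjusted p = 3.32e-08). Slc7a5, the large neutral amino acid transporter LAT1, averaged 18.8 ± 3.87 CPM in PCB 52 females against 3.11 ± 0.970 CPM in PCB 52 males, and 17.3 ± 5.05 CPM in sham females against 3.65 ± 1.51 CPM in sham males. Its log2 fold change was 2.58 ± 0.24 in PCB 52 animals and 2.23 ± 0.24 in sham animals. Xbp1, the transcription factor of the IRE1 arm, was lower in females, at 199 ± 46.2 CPM in PCB 52 females against 527 ± 63.2 CPM in PCB 52 males and 173 ± 40.2 CPM in sham females against 554 ± 144 CPM in sham males.

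Of the eIF2alpha kinases and phosphatases, 2 of 10 passed in each treatment, both higher in females, a share close to that of all genes (19.9% in PCB 52 animals, 20.3% in sham animals). Eif2ak4 had log2 fold changes of 0.85 ± 0.12 in PCB 52 animals and 0.80 ± 0.13 in sham animals, and Eif2ak3, which encodes the endoplasmic reticulum kinase PERK, had 0.33 ± 0.12 in PCB 52 animals and 0.38 ± 0.11 in sham animals. Among the subunits 1 of 8 passed, Eif2s3, higher in females (0.72 ± 0.08 in PCB 52 animals and 0.73 ± 0.08 in sham animals). Eif2s3 is X-linked and has a Y-linked copy, and how reads of the copies were split is not given in the sources used here. Of the 17 ATF4 partners and effectors tested, 2 were higher in PCB 52 females than in PCB 52 males and none lower, and 3 were higher and 1 lower in sham females than in sham males. These counts too are not far from the shares over all genes. Beside Gdf15, Vegfa was higher in both treatments (0.34 ± 0.09 in PCB 52 animals, 0.38 ± 0.09 in sham animals). Jdp2 (1.25 ± 0.35) was higher and Tnfrsf10b (-1.36 ± 0.27) lower in sham females.

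Of 13 amino acid and one-carbon enzymes tested, 3 were lower in PCB 52 females, and 2 were lower and 1 higher in sham females. These counts are close to the shares over all genes (19.9% in PCB 52 animals, 20.3% in sham animals). Shmt2, the mitochondrial enzyme that converts serine to glycine, was lower in both treatments (-0.47 ± 0.10 in PCB 52 animals, -0.46 ± 0.10 in sham animals). Gpt2, an alanine transaminase, was also lower in both (-0.84 ± 0.18 in PCB 52 animals, -0.67 ± 0.18 in sham animals). Gls2 was lower in PCB 52 females (-0.45 ± 0.13) and Aldh1l2 higher in sham females (0.33 ± 0.11). Of 7 transporters tested, 2 passed in each treatment, Slc7a5 and the glycine transporter gene Slc6a9 (0.47 ± 0.15 in PCB 52 animals, 0.63 ± 0.15 in sham animals), both higher in females.

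Of 20 synthetases, 2 were higher and 2 lower in PCB 52 females, and 2 were higher and 3 lower in sham females. These 4 of 20 and 5 of 20 are close to the shares over all genes (19.9% in PCB 52 animals, 20.3% in sham animals). Eprs1 (0.29 ± 0.08 in PCB 52 animals, 0.28 ± 0.08 in sham animals) and Yars1 (0.33 ± 0.10 in PCB 52 animals, 0.29 ± 0.10 in sham animals) were higher. Gars1 (-0.37 ± 0.09 in PCB 52 animals, -0.54 ± 0.09 in sham animals) and Farsa (-0.32 ± 0.10 in PCB 52 animals, -0.29 ± 0.09 in sham animals) were lower, as was Wars1 in sham females (-0.35 ± 0.11). Of 17 chaperones and sensors, 1 was higher and 5 lower in females in each treatment. Pdia4 was the higher gene (0.35 ± 0.08 in PCB 52 animals, 0.28 ± 0.08 in sham animals). Xbp1 (-1.41 ± 0.18 in PCB 52 animals, -1.68 ± 0.18 in sham animals), Pdia6 (-0.31 ± 0.08 in PCB 52 animals, -0.39 ± 0.08 in sham animals), Dnajc3 (-0.30 ± 0.07 in PCB 52 animals, -0.25 ± 0.07 in sham animals) and Sdf2l1 (-0.48 ± 0.15 in PCB 52 animals, -0.55 ± 0.15 in sham animals) were lower in both. Calr was lower in PCB 52 females (-0.26 ± 0.09) and Hyou1 in sham females (-0.37 ± 0.12).

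The members were next compared with each other among animals of the same group, on log2 CPM (prior count 2) with each group's mean removed. In total 55 relations were computed over the 24 libraries, 45 between members and 10 with the library axis, and 3 had an adjusted p of Pearson's r under 0.05. Atf4 and Ddit3 varied together, with r = 0.712 (permutation p = 4.00e-05 within groups, adjusted 0.00220) and Spearman's rho = 0.749 (adjusted 0.00220). The r was 0.614 without the 2 libraries farthest from the median, 0.639 in females, 0.769 in males and 0.677 without animals 13 to 16.

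Psat1 and Nupr1 had r = 0.630 (permutation p = 6.60e-04, adjusted 0.0181) and rho = 0.558 (permutation p = 0.00314, adjusted 0.0863). Without the 2 farthest libraries r was 0.469. It was 0.608 in females and 0.729 in males. Asns and Psat1, both amino acid synthesis genes, had r = 0.668 (permutation p = 0.00251, adjusted 0.0460) and rho = 0.519 (permutation p = 0.0124, adjusted 0.170). Without the 2 farthest libraries r was 0.409, and it was 0.511 in females and 0.737 in males. For both pairs the rank correlation did not pass after adjustment. Atf4 and Sesn2 went in opposite directions without passing, with r = -0.548 (permutation p = 0.0108, adjusted 0.112) and rho = -0.577 (permutation p = 0.00772, adjusted 0.142), and r = -0.471 without the 2 farthest libraries. Of the 45 pairs, 26 had a positive r.

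**Figure D5:**
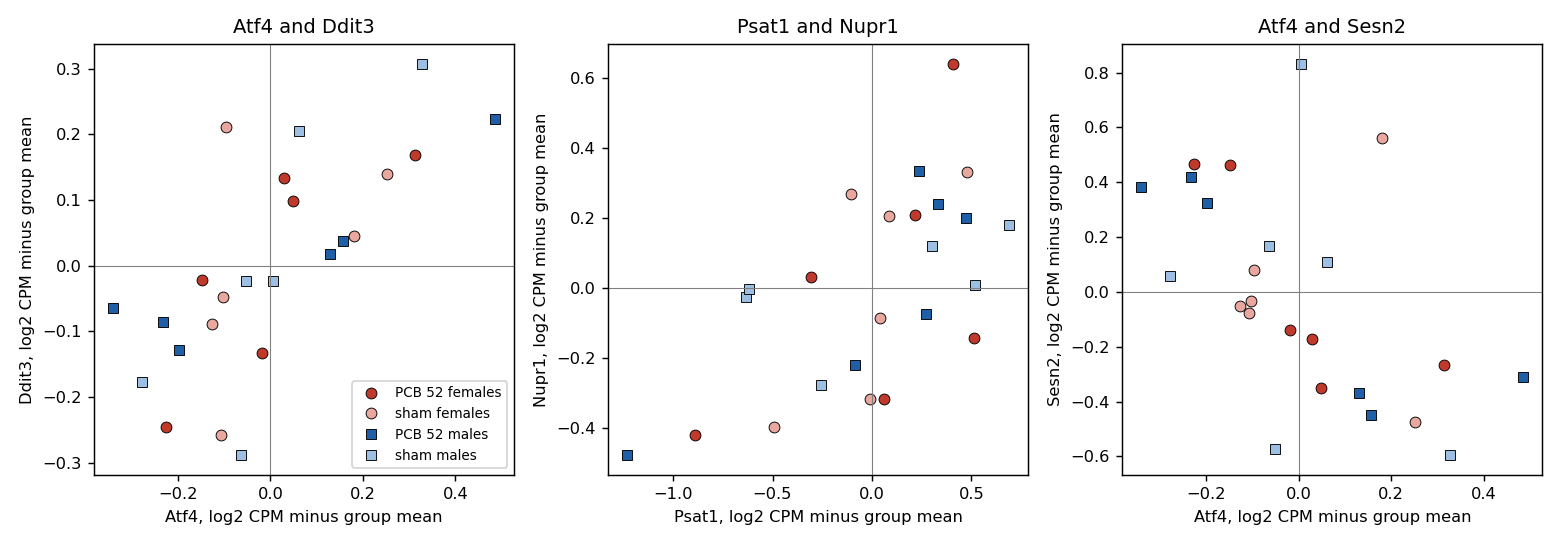
Log2 CPM of pairs of genes after removing each group's mean, with 1 point for each of the 24 livers, for Atf4 and Ddit3 (r = 0.712), Psat1 and Nupr1 (r = 0.630) and Atf4 and Sesn2 (r = -0.548). The points run upward in the first and second panels and downward in the third.

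With the library axis, the r of Atf4 was 0.499 (permutation p = 0.0253, adjusted 0.174; rho = 0.416, adjusted 0.307) and that of Chac1 was 0.410 (permutation p = 0.0626, adjusted 0.287; rho = 0.468, adjusted 0.264). For Chac1 the value was -0.10 in females and 0.836 in males. Without the 2 farthest libraries the r was 0.547 for Atf4 and 0.246 for Chac1. The r of the other 8 members ran from -0.27 for Sesn2 to 0.365 for Asns, and none passed.

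As a description over the same 24 libraries, the genes whose group-centred levels were most like each member were taken from 10471 genes outside the list. They share libraries, depth and composition, so no p is given. Atf4 was most like Eif2s1 (r = 0.838), the gene of the eIF2alpha subunit itself, followed by Ptges3 (0.821), a cochaperone gene, and Eif1 (0.807), an initiation factor gene. In females and then in males, r was 0.808 and 0.87 for Eif2s1, 0.716 and 0.882 for Ptges3, and 0.565 and 0.934 for Eif1. Atf3 was most like Stip1 (0.693), Kmt5a (0.691) and Fndc5 (0.686). Taken in females and then in males, r was 0.417 and 0.911 for Stip1, 0.847 and 0.508 for Kmt5a, and 0.843 and 0.487 for Fndc5. Ddit3 was most like Phf23 (0.711), Trip6 (0.706) and Brix1 (0.704). In the same order r was 0.396 and 0.897 for Phf23, 0.758 and 0.673 for Trip6, and 0.67 and 0.731 for Brix1.

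Trib3 was most like Parg (0.751), Srxn1 (0.715) and Foxp2 (0.714). Chac1 was most like Vezt (0.711), Ddx3y (0.693) and Cish (0.691). Ddx3y is Y-linked and had 0 counts in every female, so its value rests on the 12 males (r = 0.861 in males), and Cish had r = 0.103 in females and 0.911 in males. Sesn2 was most like Prkag3 (0.785), Cbx7 (0.745) and Nacc1 (0.739). In females and then in males, r was 0.876 and 0.763 for Prkag3, 0.566 and 0.869 for Cbx7, and 0.535 and 0.847 for Nacc1. Asns was most like Zfand4 (0.803), Ngly1 (0.774) and Smim8 (0.760). Psat1 was most like Hacd1 (0.777), Me1 (0.737), the cytosolic malic enzyme gene, and Vdac3 (0.730). Phgdh was most like C7h8orf76 (0.680), Mlh3 (0.676) and Cachd1 (0.670), and Nupr1 was most like Acsl5 (0.773), a fatty acid activating enzyme gene, Nxpe4 (0.755) and Itih4 (0.714). The values for Phgdh were higher in females (0.74, 0.761 and 0.853), which had 1 to 28 Phgdh counts, than in males (0.46, 0.319 and 0.382). No 2 members shared a gene among the nearest ones named here.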

How the data were processed

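Liver RNA from 24 rats was sequenced with 1 library per animal. The authors deposited raw gene counts in 1 table for each sex, per the file headers and the labels. The submitters' processing notes name FastQC, HISAT2 and the rn6 build. The counting tool, annotation and strand setting are not given in the sources used here, so overlapping genes may share reads. Per the labels' protocols, mRNA was enriched by poly(A) capture or rRNA removal.

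Of 15319 gene IDs, 15230 matched a symbol in a RefSeq table of GRCr8; the other 89 IDs, with up to 2.30% of the counts of any library, were kept in the tests. Library totals were 6994832 to 9185511 counts, so 1 count was worth 0.109 to 0.143 CPM. Replicates were separate animals, and no 2 libraries agreed within sampling noise (lowest chi-square per degree of freedom 6.68). No molecular identifiers are stated, so counts carry counting error and amplification error together.

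Tests used edgeR 4.0.16 in R 4.3.3 with TMM scaling, filterByExpr (minimum count 10, minimum total 15), the robust quasi-likelihood test and Benjamini-Hochberg adjustment over all genes at 0.05. All 10 members passed this filter in every comparison. Exposure was fitted within each sex (12 libraries). The average, the difference of the responses and the contrasts between the sexes came from a fit of all 24 libraries, which joins the tables of both sexes by gene ID. Fold changes are log2 with SE. Correlations used 100000 permutations within groups and Benjamini-Hochberg adjustment over 55 relations. The library axis is the leading within-group principal component, computed without the members; each sex was scored on the gene weights found in the opposite sex. Fits were checked on simulated counts. Of 1.5-fold changes placed in random genes, 62.1% were recovered in females, 52.2% in males and 26.2% in the difference of the responses. False calls were 6 of 172 in females, 8 of 168 in males and 13 of 134 in the difference of the responses. Changes of this size or less could thus often be missed.

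Alternatives were RLE normalization (median of ratios), dropping the low-count filter, at least 1 CPM in 6 libraries, DESeq2 1.42.0, each library left out in turn, no animals 13 to 16, the axis score as a covariate, a block for consecutively numbered animals in the contrasts between the sexes, and all 24 libraries in the exposure fits. All members are named. Of each other list, genes that passed are named (up to 6 per direction), otherwise the 2 with the smallest unadjusted p, together with the 3 genes most like each member. A list gene that this rule selects is not reported here. The members and lists were chosen with earlier results of these data known.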

Additional observations from a re-analysis of the deposited data

How the results depend on the processing

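No member passed in an exposure comparison or in the difference of the responses under any alternative run. Of 410 member values under alternatives other than leaving out 1 library, 394 kept their direction and their side of the threshold, and with 1 library left out 1137 of 1200 did. The 1200 include contrasts between the sexes refitted without a library of the other treatment. Such a library enters the contrast only through the shared fit, so the fold change could hardly move. Trib3 between sham females and sham males was -0.7486, and -0.7484 without PCB 52 females replicate 3. DESeq2 called 28 genes in females, 1 in males and 105 on average, against 0 each with edgeR, none of them a member; its adjusted p was not given for several low members in females. Fitting all 24 libraries called 1 gene in females. With 1 library left out, 0 to 8 genes were called in females (8 without PCB 52 females replicate 4, 1 without sham females replicate 5) and 0 to 15 on average (15 without PCB 52 females replicate 4).

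Signs turned without animals 13 to 16 for Atf4 (-0.13) and Ddit3 (-0.0066) in males, Phgdh in the difference of the responses (0.059) and Atf3 between PCB 52 females and PCB 52 males (0.16). They turned with the axis score for Atf4 in males (-0.093) and for Sesn2 between sham females and sham males (0.0033), and with the block for Sesn2 there (0.037). With 1 library left out, values of results that changed sign ran as follows: in females Phgdh from -0.079 to 0.43, in males Atf4 from -0.064 to 0.12, Trib3 from -0.13 to 0.15, Sesn2 from -0.29 to 0.034 and Psat1 from -0.24 to 0.046. On average Atf4 ran from -0.077 to 0.016 and Nupr1 from -0.014 to 0.11, and in the difference of the responses Phgdh ran from -0.29 to 0.22 and Chac1 from -0.073 to 0.53. Between sham females and sham males Chac1 ran from -0.036 to 0.41 and Sesn2 from -0.15 to 0.21, and between PCB 52 females and PCB 52 males Atf3 ran from -0.44 to 0.0092. The causes were not tested. Members called ran from 3 to 6 in sham animals and from 4 to 5 in PCB 52 animals when 1 library was left out. Leaving out animals 13 to 16 together removed the call of Trib3 in PCB 52 animals (edgeR adjusted p = 0.0545). No paired analysis was possible because the labels number animals from 1 to 24, give no number to more than 1 animal and state no pairing. The block for consecutively numbered animals treats neighbours in that numbering as pairs, which the labels do not say they are. Members with few counts per library (Phgdh in females, Atf3, Chac1, Asns) carry the widest error.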
